A study of Mus musculus with 5 samples.

Results

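The Mediator complex was followed through its 33 subunit genes in regulatory T cells (Treg cells) sorted from mouse lymph nodes (LN) and adipose tissue. The genes were taken by name: the Med genes, the kinases Cdk8 and Cdk19, and the cyclin Ccnc. They are 33 of 46754 gene symbols present in all 3 deposited tables, of which 17084 were listed above 0 in at least 1 of the 5 libraries. Every library came from C57BL/6 mice carrying Foxp3Cre, a Cre recombinase driven from the Foxp3 gene and so active in Treg cells, and the study describes a single experiment with 1 library per group. The 4-month group of libraries was from Foxp3Cre mice aged 4 months: LN Treg cells, adipose Treg cells (called lean here) and adipose Treg cells from obese mice, whose sample name carries HFD (commonly high-fat diet; no label gives the diet itself). The others were adipose Treg cells from 10-month-old mice, 1 library from Foxp3Cre mice and 1 from Med23fl/fl;Foxp3Cre mice, in which loxP sites flank part of the gene of the Mediator subunit Med23. That last library is called the library labelled Med23 KO throughout. The sources used here do not give the sort gate or the number of mice behind a library. No value below therefore has a replicate, and no test between conditions was possible.

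Mediator is the large coactivator that bridges transcription factors bound at enhancers and promoters to RNA polymerase II and the general transcription factors. Its core has a head and a middle module that contact the polymerase, a tail module that receives most activators, and the long subunit Med14, which joins them. A separable kinase module, made of Cdk8 or its paralogue Cdk19, cyclin C, Med12 or Med12l, and Med13 or Med13l, docks on the core and controls its contact with the polymerase. Med1 is the docking subunit for nuclear receptors, among them PPARG, a regulator of adipose Treg cells.

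The tables hold read counts that the authors scaled with 1 factor per column, and values under 1 scaled count are listed at 0. The libraries held between 4595046 listed reads (the library labelled Med23 KO) and 9694474 (LN). For comparison across tables each column was rescaled to counts per 1000000, called CPM here. Between 25 members (lean adipose) and 32 (obese adipose) were listed above 0, and together the members took 1389.7 CPM (10-month Foxp3Cre) to 2294 CPM (the library labelled Med23 KO). All 8 Treg and T cell markers were above 0 in every library, but their levels differed. They summed to 8593 CPM in LN and to 6521 to 9041 CPM in the adipose libraries. Foxp3 was at 52.5 CPM in LN and 155 to 216 in the adipose libraries. In scaled counts Il2ra was 4.73-fold higher and Cd3g 4.23-fold lower in lean adipose than in LN. Trac (5.40-fold) and Il2ra (5.10-fold) were lower in the library labelled Med23 KO than in its 10-month control. Of the 8, 0 were 2-fold higher there. Of 14 macrophage and dendritic cell markers, 1 was above 0 in LN and 6 to 14 in the adipose libraries, and their sum was 7.01 CPM in LN, 897 in lean and 4960 in obese adipose, 658 in 10-month Foxp3Cre, then 108 for the library labelled Med23 KO. Fibroblast and mesothelial markers summed to 982 CPM in lean adipose and to at most 48.9 in the other libraries. Adipocyte markers were at 0 in LN and summed to 299 CPM in obese adipose and 13.7 to 33.2 in the other adipose libraries. B cell markers summed to 101 CPM in LN and 3.51 to 30.4 in adipose tissue. Erythroid markers were at 0 in LN and summed to 584 to 8943 CPM in the adipose libraries. Xist, transcribed from the inactive X chromosome, was at 228 to 602 CPM in LN and both 10-month libraries, against 0 in lean and 3.60 in obese adipose. The Y-linked Ddx3y was at 559.7 and 561.7 CPM in lean and obese adipose and at 0 in the other 3, so in the 4-month comparisons tissue and these sex-linked markers cannot be told apart. Gapdh, which all cells use, was at 1.05 CPM in lean adipose and 10.7 in obese adipose against 548 to 979 elsewhere. A member listed at 0 is therefore not read as absent. In the 2-fold counts below, a listed 0 enters as 0 and can make a call. In bulk RNA, fewer cells of a type and less RNA per cell cannot be told apart.

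**Figure D1:**
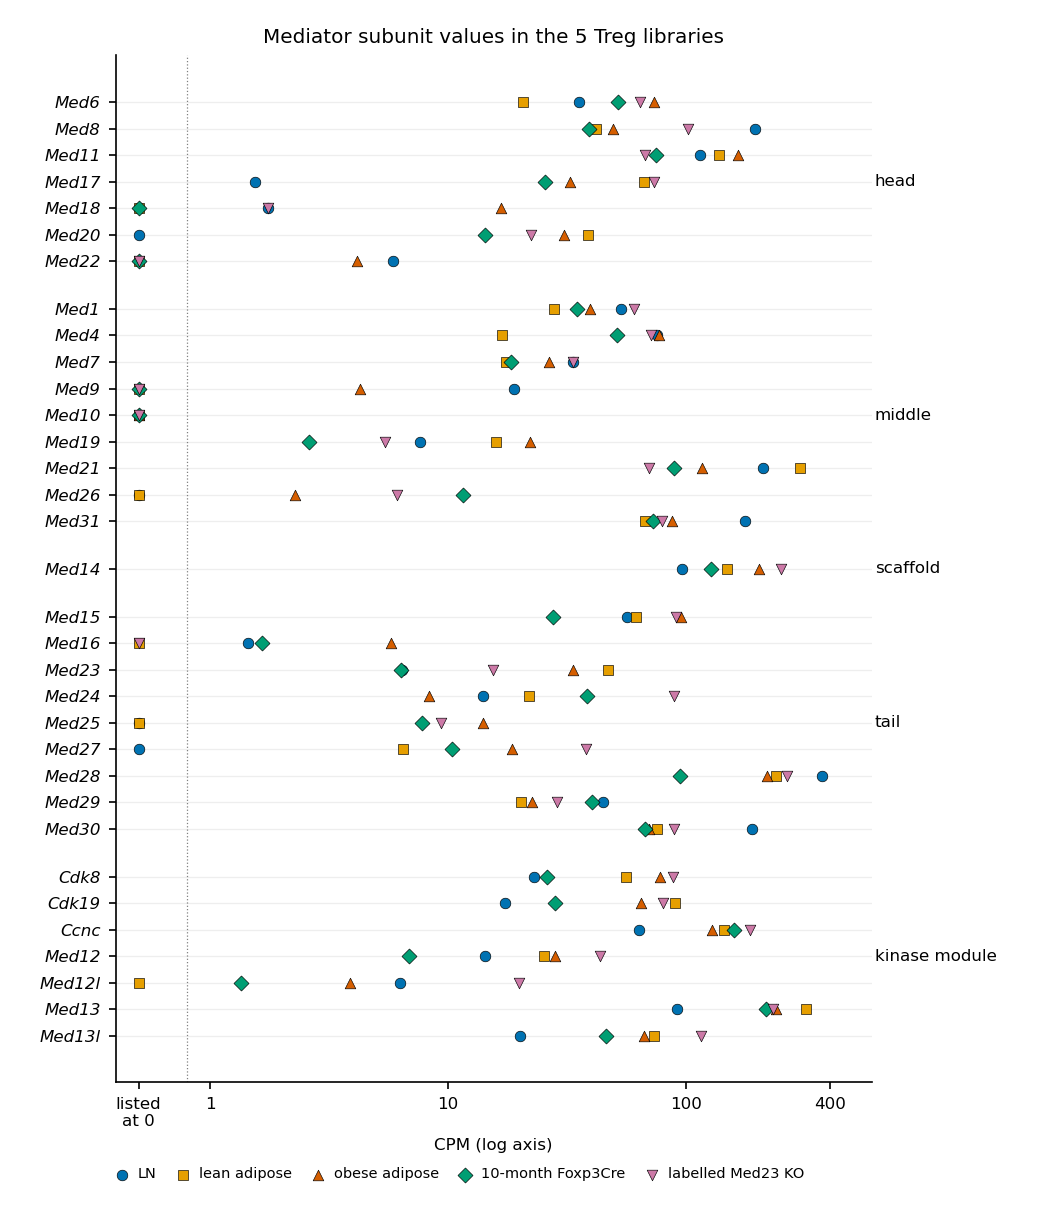
Values of the 33 Mediator genes in the 5 Treg libraries, in CPM on a log axis, grouped by module; 1 point per library, with genes listed at 0 placed left of the dotted line. Med17 sits at 1.55 CPM in LN and at 25.4 or more in every adipose library, and Med10 is at 0 in all 5.

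Med23, the tail subunit through which ELK1 and the viral activator E1A reach Mediator, was the gene targeted in the study (ENSMUSG00000019984, chromosome 10). Its level was 6.40 CPM in LN, 46.8 in lean and 33.3 in obese adipose, 6.32 in 10-month Foxp3Cre adipose, then 15.5 for the library labelled Med23 KO. Thus the library labelled Med23 KO was not the lowest in Med23: it lay above LN and above its own 10-month control. In the authors' scaled counts Med23 was 13.9 in the library labelled Med23 KO (71 reads) against 7.02 in the control (61 reads), 1.98-fold higher, with an exact 95% counting interval of 1.39 to 2.84. These Clopper-Pearson intervals, given in parentheses after folds from here on, cover counting error alone and not differences between mice. Folds between libraries of the same table (lean or obese adipose against LN, and the 10-month pair) are ratios of the authors' scaled counts and so depart from the ratio of the CPM values printed beside them, and folds across tables are ratios of CPM. The tables give 1 value per gene, so reads from the floxed part and from the rest of the transcript could not be separated, and every direction drawn from this library carries that limit. Among the Foxp3Cre libraries, Med23 in lean adipose was 6.64-fold above LN (5.07 to 8.82) and 4.63-fold higher in obese adipose (3.50 to 6.22). The 10-month control and LN differed by less than counting error, at 1.01-fold (0.70 to 1.46). Between the control ages, Med23 was 7.41-fold lower at 10 months than in lean adipose at 4 months (5.65 to 9.87). Med23 was the 1 member at least 2-fold above each of the other 3 libraries in both 4-month adipose libraries, a pattern that 6.22% of 17061 genes had, and no member had the opposite pattern (1.83% of genes). Those 4-month adipose libraries were also the ones with Ddx3y, and the other 3 carried Xist at 228 to 602 CPM. For Med23, tissue, age and these sex-linked markers therefore cannot be told apart.

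**Figure D2:**
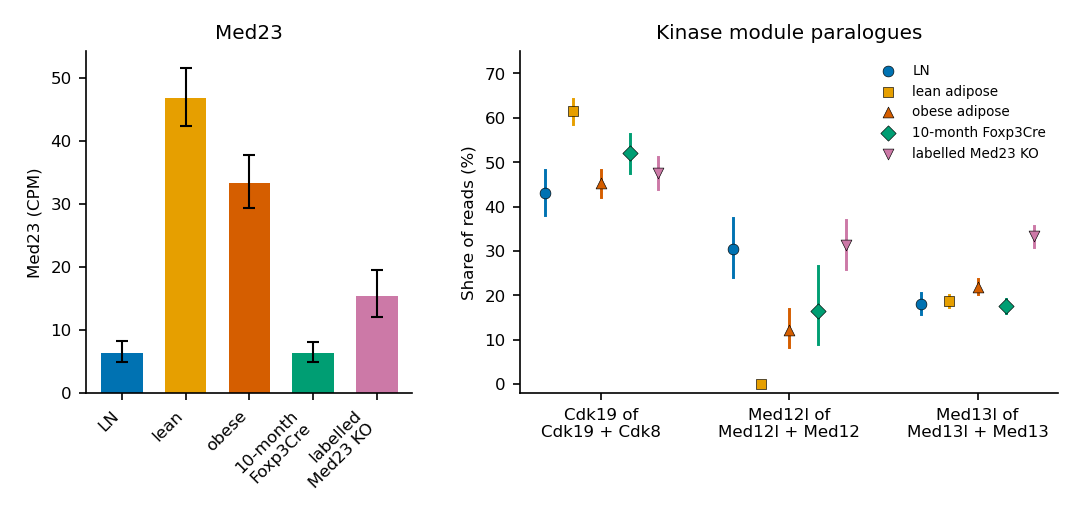
Left, Med23 in CPM in each library, with exact Poisson 95% counting intervals as bars; right, the share of reads that Cdk19, Med12l and Med13l took of their paralogue pairs, with exact binomial 95% counting intervals (none where Med12l is listed at 0). Med23 is highest in lean adipose (46.8 CPM), and the Med13l share is highest in the library labelled Med23 KO (33.2%).

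The kinase module was the part of Mediator in which LN stood furthest from all 4 adipose libraries. Its 7 genes took 12.1% of Mediator reads in LN (11.7% to 12.6%), 34.0% in lean adipose (33.3% to 34.7%), 29.8% in obese adipose (29.0% to 30.5%), 34.9% in 10-month Foxp3Cre (34.1% to 35.7%) and 33.3% in the library labelled Med23 KO (32.4% to 34.3%). The share is taken within a library, so the scaling between libraries does not enter it. Leaving out each of the 7 genes in turn gave 7.78% to 11.8% in LN and 20.5% to 34.8% over the 4 adipose libraries, so no single kinase module gene made the gap. The lowest shares came without Med13. The adipose share was 33.3% in the library with 108 CPM of macrophage markers and 29.8% in the library with 4960 CPM, while LN had 7.01 CPM. It was 34.0% and 29.8% in the libraries with Ddx3y and 34.9% and 33.3% in the adipose libraries with Xist, the marker LN also carries. Exonic length, taken over the merged exons of all annotated transcripts of a gene, moved with the result. Kinase module genes had a median exonic length of 9832 bases against 3001 in the head and 2997 in the middle module. Across members, the log2 ratio of lean adipose to LN and exonic length had a Spearman rho of 0.40 (n = 30), against 0.04 over 13502 genes. For obese adipose it was 0.32 (n = 32, all genes 0.06) and for 10-month Foxp3Cre 0.29 (n = 32, all genes 0.10). These describe points from shared libraries, and the part of length in the result was not tested.

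**Figure D3:**
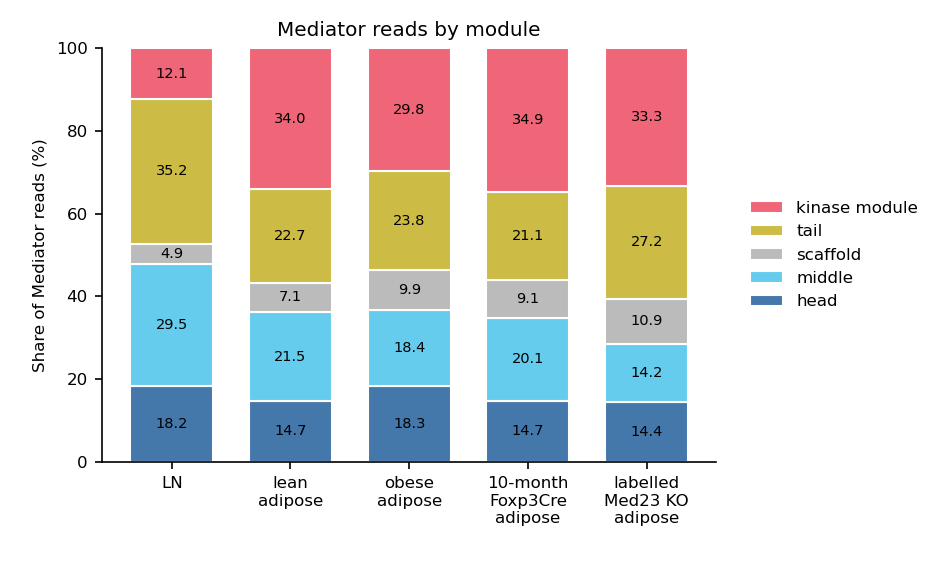
Share of the reads of all 33 Mediator genes taken by each module in the 5 libraries, as stacked bars that sum to 100%. The kinase module takes 12.1% in LN and 29.8% to 34.9% in the adipose libraries, while the middle module takes 29.5% in LN and 14.2% to 21.5% in the adipose libraries. The tail, with Med27 to Med30 counted in it, takes 35.2% in LN and 21.1% to 27.2% in the adipose libraries.

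Med13, the large subunit that attaches the kinase module to the core, was at 91.6 CPM in LN, 318 in lean and 237 in obese adipose, 217 in 10-month Foxp3Cre, then 232 for the library labelled Med23 KO. All 4 adipose values lay at least 2-fold above LN, with lean adipose highest at 3.15-fold (2.92 to 3.40). Its paralogue Med13l was at 20.1 CPM in LN, 73.3 in lean and 66.4 in obese adipose, 46.1 in 10-month Foxp3Cre, then 116 for the library labelled Med23 KO. Med13l was thus also lowest in LN, 3.30-fold below lean adipose (2.81 to 3.90) and 2.93-fold below obese adipose (2.48 to 3.48). Ccnc, the cyclin partner of both kinases, was at 63.1 CPM in LN, 144 in lean and 129 in obese adipose, 159 in 10-month Foxp3Cre, then 186 for the library labelled Med23 KO. Ccnc in lean adipose was 2.06-fold above LN (1.87 to 2.27), and its exons overlap those of the protein-coding gene Tstd3 on the opposite strand.

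The catalytic subunits showed the same low LN values with more spread among the adipose libraries. Cdk8 was at 22.9 CPM in LN, 56.1 in lean and 77.9 in obese adipose, 25.9 in 10-month Foxp3Cre, then 87.9 for the library labelled Med23 KO. Cdk19 was at 17.3 CPM in LN, 89.3 in lean and 64.3 in obese adipose, 28.1 in 10-month Foxp3Cre, then 79.7 for the library labelled Med23 KO. Both kinases therefore had 3 high adipose libraries and a 10-month control nearer to LN, where Cdk8 differed by less than counting error (1.13-fold, 0.94 to 1.36). Cdk19 in lean adipose was 4.67-fold above LN (3.95 to 5.56) and Cdk8 2.22-fold (1.89 to 2.61). As a share of the reads of both kinases, Cdk19 took 61.4% in lean adipose (58.7% to 64.2%) and 43.1% to 52.0% in the other 4 libraries.

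Med12 activates the kinase and is X-linked. It was at 14.3 CPM in LN, 25.3 in lean and 28.0 in obese adipose, 6.84 in 10-month Foxp3Cre, then 43.5 for the library labelled Med23 KO. The 2 libraries from 10-month mice thus held its lowest and highest values, 5.16-fold apart (3.89 to 6.92). Its paralogue Med12l was at 6.29 CPM in LN, listed at 0 in lean adipose, 3.87 in obese adipose, 1.35 in 10-month Foxp3Cre, then 19.8 for the library labelled Med23 KO, and is overlapped by Igsf10 and P2ry12. Between the 10-month libraries Med12l differed by 11.9-fold (6.63 to 23.2), the widest fold of any member with values above 0 in both. It rested on 91 against 13 reads, and the smallest value listed in the control was 9 reads. Med12l took 12.1% to 31.3% of the reads of its pair in the 4 libraries where it was listed. Med13l took 17.5% to 21.9% of its pair in 4 libraries and 33.2% in the library labelled Med23 KO (30.9% to 35.6%).

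The sequences upstream of 4 kinase module genes that were at least 2-fold above LN in lean adipose are printed because all 6 kinase module windows at hand held the GC box GGGCGG. They run 5′ to 3′ over the 250 bases before the start of each gene, from RefSeq on GRCm38.p6. Capitals mark the GC box and the CCAAT and E-box motifs named after the sequences, on either strand.
Cdk8, chr5:146231000-146231249, plus strand: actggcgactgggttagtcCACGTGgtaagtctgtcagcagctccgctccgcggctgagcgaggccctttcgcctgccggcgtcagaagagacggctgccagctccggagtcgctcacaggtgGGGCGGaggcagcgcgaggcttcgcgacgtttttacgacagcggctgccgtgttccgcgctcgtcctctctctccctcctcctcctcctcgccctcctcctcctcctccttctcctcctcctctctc
Ccnc, chr4:21727451-21727700, plus strand: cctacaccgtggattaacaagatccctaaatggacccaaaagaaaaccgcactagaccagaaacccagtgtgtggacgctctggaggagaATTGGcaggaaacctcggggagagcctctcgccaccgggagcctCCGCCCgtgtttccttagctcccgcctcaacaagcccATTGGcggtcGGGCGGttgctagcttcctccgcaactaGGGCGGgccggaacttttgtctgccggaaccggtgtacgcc
Med13, chr11:86357597-86357846, minus strand: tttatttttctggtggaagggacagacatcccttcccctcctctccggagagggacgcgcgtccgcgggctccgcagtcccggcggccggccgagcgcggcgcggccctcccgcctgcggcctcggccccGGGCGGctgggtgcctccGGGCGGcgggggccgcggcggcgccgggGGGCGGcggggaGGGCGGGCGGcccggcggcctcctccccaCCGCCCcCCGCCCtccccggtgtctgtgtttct
Med13l, chr5:118560469-118560718, plus strand: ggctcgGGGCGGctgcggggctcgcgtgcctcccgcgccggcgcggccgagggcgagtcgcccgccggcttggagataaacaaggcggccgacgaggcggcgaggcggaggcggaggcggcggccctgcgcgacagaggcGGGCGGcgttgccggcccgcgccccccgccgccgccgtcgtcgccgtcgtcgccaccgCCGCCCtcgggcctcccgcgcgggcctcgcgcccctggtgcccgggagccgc
Over the 28 members with a window (32 windows, from 250 bases before to 50 after the start), GGGCGG on either strand was found in 20 windows, 62.5%, against 35.7% of all 32851 windows. Med13 held 7 such matches in the bases shown, Med13l and Ccnc held 3 each, and Cdk8 held 1. GC content over the same bases was 80.0% for Med13 and 84.0% for Med13l, against 53.6% for Med17. The ETS motif CCGGAAG was in 9 member windows, 28.1%, against 8.86% of all, and in 0 of the 6 kinase module windows. The CCAAT motif was in 37.5% of member windows and 37.4% of all, the TATA box TATAAA in 9.38% and 13.6%, and the E-box CACGTG in 12.5% and 7.15%. The NRF1 and YY1 motifs searched were in no member window. These are matches of letters only, and no binding was measured.

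In the head module, Med17, its central subunit, showed the widest gap between LN and adipose tissue of any member listed above 0 in all libraries. Med17 was at 1.55 CPM in LN (15 reads), 66.2 in lean and 32.4 in obese adipose, 25.4 in 10-month Foxp3Cre, then 73.1 for the library labelled Med23 KO. Every adipose value was above LN, by 38.7-fold in lean adipose (23.3 to 69.7), 18.6-fold in obese adipose (11.1 to 33.8) and 16.4-fold in 10-month Foxp3Cre (9.75 to 29.8). The bases upstream of Med17 are shown for this gap, with its CCAAT, ETS and E-box motifs in capitals, in that order.
Med17, chr9:15279907-15280156, minus strand: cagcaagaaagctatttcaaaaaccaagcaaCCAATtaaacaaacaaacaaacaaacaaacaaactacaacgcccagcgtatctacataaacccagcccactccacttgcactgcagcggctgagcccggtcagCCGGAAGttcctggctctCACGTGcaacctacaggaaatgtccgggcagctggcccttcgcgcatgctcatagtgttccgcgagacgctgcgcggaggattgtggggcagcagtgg
Med20, which pairs with Med18 in the movable jaw of the head, was listed at 0 in LN and at 38.5 CPM in lean adipose, 30.5 in obese adipose, 14.3 in 10-month Foxp3Cre, then 22.2 for the library labelled Med23 KO. Its exons overlap Gm20517 on the same strand and the pseudogene Kpna2-ps, so its reads may be shared. Med18 was at 1.75 CPM in LN, listed at 0 in lean adipose, at 16.7 in obese adipose, at 0 in 10-month Foxp3Cre and at 1.74 in the library labelled Med23 KO. The jaw partners thus did not share a pattern. Med8, which tethers the jaw to the rest of the head, went the other way: it was at 195 CPM in LN, 41.9 in lean and 49.2 in obese adipose, 39.0 in 10-month Foxp3Cre, then 102 for the library labelled Med23 KO. LN was highest for Med8, 5.14-fold above lean adipose (4.59 to 5.77), 4.47-fold above obese adipose (3.99 to 5.01) and 5.01-fold above 10-month Foxp3Cre (4.48 to 5.61).

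The other head genes varied less or were near the lower limit. Med6, which sits where the head meets the middle module, was at 35.6 CPM in LN, 20.6 in lean and 73.4 in obese adipose, 51.8 in 10-month Foxp3Cre, then 63.8 for the library labelled Med23 KO. Lean adipose was lowest for Med6, 3.56-fold below obese adipose (3.00 to 4.24). Med11 was at 114 CPM in LN, 138 in lean and 166 in obese adipose, 74.5 in 10-month Foxp3Cre, then 67.0 for the library labelled Med23 KO. LN lay between the 4-month and the 10-month adipose values of Med11. Its partner Med22 was at 5.88 CPM in LN and 4.14 in obese adipose and listed at 0 in the other 3.

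Opposite to the kinase module, the middle module took a smaller share of Mediator reads in adipose tissue than in LN. So did the tail with Med27 to Med30 counted in it. Shares within a library add to a fixed total, so they do not vary independently. The tail took 35.2% in LN and 22.7%, 23.8%, 21.1% and 27.2% in lean, obese, 10-month Foxp3Cre and labelled Med23 KO adipose. With Med27 to Med30 counted in the head, the tail took 4.03% in LN and 6.28%, 7.67%, 5.86% and 8.93% in the same order. The direction of the tail therefore depended on where Med27 to Med30 were placed. The middle module took 29.5% in LN and 21.5%, 18.4%, 20.1% and 14.2% in the same order. Med31, its most conserved subunit, was at 176 CPM in LN, 67.0 in lean and 86.7 in obese adipose, 72.3 in 10-month Foxp3Cre, then 79.4 for the library labelled Med23 KO. LN lay above all 4 adipose values of Med31, which lay between 67.0 and 86.7 CPM, by 2.90-fold over lean adipose (2.63 to 3.19). Med21, which forms the hinge of the middle module with Med7, was at 209 CPM in LN, 302 in lean and 116 in obese adipose, 89.1 in 10-month Foxp3Cre, then 69.4 for the library labelled Med23 KO. Lean adipose was highest for Med21, and the gene overlaps Tm7sf3 and a pseudogene. Med7 was at 33.5 CPM in LN, 17.6 in lean and 26.4 in obese adipose, 18.3 in 10-month Foxp3Cre, then 33.3 for the library labelled Med23 KO, so the hinge partners differed in order.

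Med1, the nuclear receptor subunit, was at 53.0 CPM in LN, 27.7 in lean and 39.5 in obese adipose, 34.7 in 10-month Foxp3Cre, then 60.5 for the library labelled Med23 KO. All 3 adipose libraries from Foxp3Cre mice were below LN in Med1, by 2.11-fold (1.80 to 2.47), 1.51-fold (1.31 to 1.75) and 1.53-fold (1.33 to 1.76). Pparg, its nuclear receptor partner, was at 42.0 CPM in lean and 31.5 in obese adipose and 212 in 10-month Foxp3Cre, and listed at 0 in both LN and the library labelled Med23 KO. Med4 was at 75.4 CPM in LN, 16.9 in lean and 76.8 in obese adipose, 51.3 in 10-month Foxp3Cre, then 70.9 for the library labelled Med23 KO. Lean adipose alone was low for Med4, 4.94-fold below LN (4.12 to 5.94). Med9, the partner of Med4, was at 18.9 CPM in LN and 4.27 in obese adipose and listed at 0 in the other 3.

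Med19 was at 7.63 CPM in LN, 15.9 in lean and 22.1 in obese adipose, 2.59 in 10-month Foxp3Cre, then 5.44 for the library labelled Med23 KO, and it overlaps Tmx2 and Zdhhc5. Both 4-month adipose libraries were above LN and both 10-month libraries below it. The counting intervals of the library labelled Med23 KO (25 reads, 3.52 to 8.03 CPM) and LN (5.99 to 9.58 CPM) overlapped. Med26, which hands the polymerase over to the elongation machinery, was listed at 0 in LN and lean adipose and was at 2.27 CPM in obese adipose, 11.5 in 10-month Foxp3Cre, then 6.09 for the library labelled Med23 KO. Med10 was listed at 0 in all 5 libraries. Med14, the X-linked backbone, was at 95.5 CPM in LN, 148 in lean and 201 in obese adipose, 127 in 10-month Foxp3Cre, then 250.1 for the library labelled Med23 KO. All adipose values of Med14 lay above LN, the nearest by 1.33-fold (1.22 to 1.45).

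The tail module split between genes high in LN and genes low in LN. Med28 was at 373 CPM in LN, 239 in lean and 217 in obese adipose, 94.5 in 10-month Foxp3Cre, then 264 for the library labelled Med23 KO. LN was highest for Med28, 3.95-fold above 10-month Foxp3Cre (3.67 to 4.25). Med30 was at 188 CPM in LN, 75.6 in lean and 69.5 in obese adipose, 67.4 in 10-month Foxp3Cre, then 88.8 for the library labelled Med23 KO. LN stood above all adipose values for Med30, by 2.74-fold over lean (2.51 to 3.00) and 3.04-fold over obese adipose (2.76 to 3.36). Med29 was at 44.8 CPM in LN, 20.1 in lean and 22.5 in obese adipose, 40.2 in 10-month Foxp3Cre, then 28.7 for the library labelled Med23 KO. The 10-month control was close to LN for Med29 and both 4-month adipose libraries were below both. Med27 was listed at 0 in LN and was at 6.44 CPM in lean adipose, 18.5 in obese adipose, 10.4 in 10-month Foxp3Cre, then 38.1 for the library labelled Med23 KO.

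Of the activator-binding tail genes, Med15, which binds SREBP factors, was at 56.4 CPM in LN, 61.7 in lean and 94.98 in obese adipose, 27.5 in 10-month Foxp3Cre, then 91.0 for the library labelled Med23 KO. LN and lean adipose did not differ beyond counting error in Med15 (1.01-fold, 0.89 to 1.14). Med24, which forms a unit with Med16 and Med23, was at 14.0 CPM in LN, 21.9 in lean and 8.27 in obese adipose, 38.2 in 10-month Foxp3Cre, then 89.0 for the library labelled Med23 KO. Both 10-month libraries were highest for Med24, where Med23 was high in both 4-month adipose libraries. Med16, the third gene of that unit, was at 1.44 CPM in LN, 5.74 in obese adipose and 1.66 in 10-month Foxp3Cre and listed at 0 in lean adipose and the library labelled Med23 KO. Med25, the target of the viral activator VP16, was listed at 0 in LN and lean adipose and was at 14.0 CPM in obese adipose, 7.77 in 10-month Foxp3Cre, then 9.36 for the library labelled Med23 KO.

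Per kilobase of exon, subunits of the core ranked highest in each library. In LN these were Med30 (158.6 CPM per kilobase), Med11 (109) and Med31 (102), against a median of 7.25 over the 28 members listed. Med11 and Med30 were among the leading 3 in every library, with Med11 at 132 in lean adipose and 158 in obese adipose. Of the kinase module, Ccnc ranked highest per kilobase in LN (12.3) and in the library labelled Med23 KO (36.3), where Med13 was at 21.4.

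Lean adipose and LN were compared within 1 table to show how Mediator differs between tissues in 4-month mice. A gene counts as measured when it had at least 1 scaled count in either library, and as called at 2-fold or more on log2 of the value plus 1. Of 30 measured members, 9 were higher in lean adipose and 12 lower, 30.0% and 40.0%, beside 37.6% and 32.1% of 13541 genes, so the whole set lay near the background. Calls resting on a listed 0 were Med20 and Med27 (higher) and Med18, Med22, Med9, Med16 and Med12l (lower). For Med16, in the tail, the authors' deposited log2 fold change of -0.77 used 8 reads for that 0, which is under 2-fold. The modules divided: 5 of 7 kinase module genes were higher and 1, Med12l, lower, with a median log2 ratio of 1.12. Of 7 middle genes 0 were higher and 5 lower, with a median of -1.05. On CPM 3 of them were lower (median -0.91), since Med1 and Med7 then lay within 2-fold. The head had 2 higher and 3 lower of 7, and the tail 2 and 3 of 8. Over all genes the median was 0.14. With that median subtracted, 3 of 7 kinase module genes were higher, since Cdk8 and Ccnc came to 0.98 and 0.89. The median over members was 0.06, -0.08 when centred, and -0.84 without the 6 members whose exons overlap a protein-coding gene or a pseudogene (Med20, Med19, Med21, Med15, Ccnc and Med12l).

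Obese adipose and LN were compared in the second table. Of 32 measured members 13 were higher and 6 lower, 40.6% and 18.8%, beside 41.8% and 23.7% of 14713 genes. Med20, Med26, Med25 and Med27, among the higher, were listed at 0 in LN. The kinase module median was 1.19, with 4 of 7 higher (Cdk8, Cdk19, Med13 and Med13l) and 0 lower. Centred on all genes it was 0.75, with 3 higher and 1, Med12l, lower. The middle module had 2 higher and 3 lower of 8 (median -0.54), the head 3 and 1 of 7 (median 0.86), and the tail 4 and 2 of 9 (median 0.57). The 5 tail genes other than Med27 to Med30 had a median of 1.34, above that of the kinase module. Over all genes the median was 0.44 in this table, and centring on it gave 10 members higher and 11 lower, beside 31.3% and 31.4% of all genes. On CPM the counts were 16 and 4. Both 4-month comparisons use the same LN library, so their values are set side by side and are not independent.

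In the same way, the 10-month Foxp3Cre library was set against LN across tables. Of 32 members 9 were higher and 11 lower, 28.1% and 34.4%, beside 34.7% and 29.0% of 13030 genes. Of these calls, Med20, Med26, Med25 and Med27 (higher) and Med18, Med22 and Med9 (lower) rested on a listed 0. Ccnc (2.52-fold, 2.30 to 2.78), Med13 (2.37-fold, 2.19 to 2.56) and Med13l (2.29-fold, 1.93 to 2.73) were higher than in LN. In the same module Med12l was lower (4.67-fold, 2.54 to 9.27), and Med12 was 2.10-fold below LN (1.55 to 2.85) but under 2-fold on the value plus 1. The kinase module median was 0.67 against 0.12 over all genes. The middle module had 1 higher and 4 lower of 8 (median -1.03). Age and tissue both differ here and cannot be told apart.

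**Figure D4:**
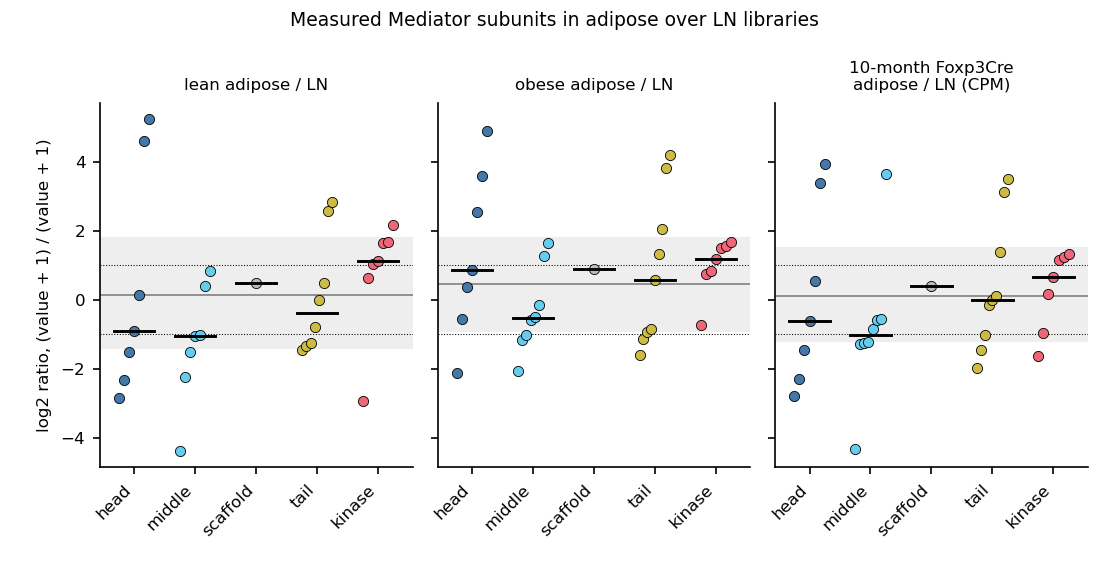
Log2 ratios of measured Mediator genes in 3 adipose libraries over LN, by module, 1 point per gene with the module median as a black bar; the grey line and band are the median and middle 50% of all measured genes, and dotted lines mark 2-fold. Kinase module medians are 1.12, 1.19 and 0.67, and middle module medians are -1.05, -0.54 and -1.03.

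Across all 5 libraries, LN was at least 2-fold below each adipose library for 6 of 32 measured members (Med17, Med20, Med27, Ccnc, Med13 and Med13l), a pattern held by 8.29% of 17061 genes. LN was at least 2-fold above each adipose library for 3 members (Med9, Med31 and Med30), beside 7.91% of genes. Med20, Med26, Med25 and Med27 were listed at 0 in LN and at 5 CPM or more in at least 1 adipose library, as were 21.2% of genes. Med22, Med9 and Med12l were at 5 CPM or more in LN and at 0 in at least 1 adipose library, as were 13.1% of genes.

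The library labelled Med23 KO was compared with the 10-month Foxp3Cre library in the third table, the comparison aimed at the effect of Med23 loss in adipose Treg cells. Of 30 measured members 11 were higher in the library labelled Med23 KO and 2 lower, 36.7% and 6.67%, beside 28.6% and 34.9% of 13549 genes. The 2 lower members, Med26 and Med16, rested on 28 against 111 reads and on 0 against 16 reads. The lower count was 0 with a pseudocount of 5 and 1 with columns rescaled, with centring, or with a minimum of 5 scaled counts. Among the higher, Med18 rested on 8 reads against a listed 0, and the smallest value listed in the control was 9 reads. The authors give Med18 no fold change. The higher members were Med8, Med17 and Med18 of the head, Med15, Med27 and Med28 of the tail, and Cdk8, Cdk19, Med12, Med12l and Med13l of the kinase module. The kinase module thus had 5 of 7 higher (median 1.17), while 0 of 7 middle genes were higher (median 0.16). The kinase module share of Mediator reads was 33.3% in this library and 34.9% in its control. Across members, the log2 ratio and exonic length had a Spearman rho of 0.42 (n = 30), against 0.06 over 13496 genes. The part of length was not tested. The median over members was 0.57, against -0.15 over all genes on the deposited scale and 0.15 when columns were rescaled.

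By fold, Med12l and Med12 led in that comparison, as given above. Med27 followed at 2.98-fold (34.2 against 11.5 scaled counts, 2.32 to 3.85), then Cdk8 at 2.75-fold (79.0 against 28.8, 2.34 to 3.23) and Med15 at 2.68-fold (81.8 against 30.5, 2.29 to 3.14). Med17 was 2.33-fold higher (1.97 to 2.76), Cdk19 2.30-fold (1.96 to 2.70), Med28 2.26-fold (2.07 to 2.47), Med8 2.12-fold (1.85 to 2.44) and Med13l 2.03-fold (1.79 to 2.31). Within the unit that Med23 belongs to, Med24 was 1.89-fold higher (1.63 to 2.18) and Med16 was listed at 0. Ccnc and Med13 stayed close, at 167 against 177 and 209 against 241 scaled counts, and the direction of Ccnc, Med13, Med25, Med31 and Med6 depended on the scaling. Med24, Med27 and Med12l were the 3 members at least 2-fold above all other libraries in the library labelled Med23 KO, as were 11.8% of genes, and 0 members were 2-fold below all others (7.29% of genes). The authors' deposited table marks 10 members in this comparison, all higher in the library labelled Med23 KO, and leaves Med23 unmarked with a log2 fold change of 0.99. This library had the fewest reads, and erythroid markers summed to 8943 CPM in it against 1202 in its control, while macrophage markers summed to 108 against 658. Their part in these differences was not tested.

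**Figure D5:**
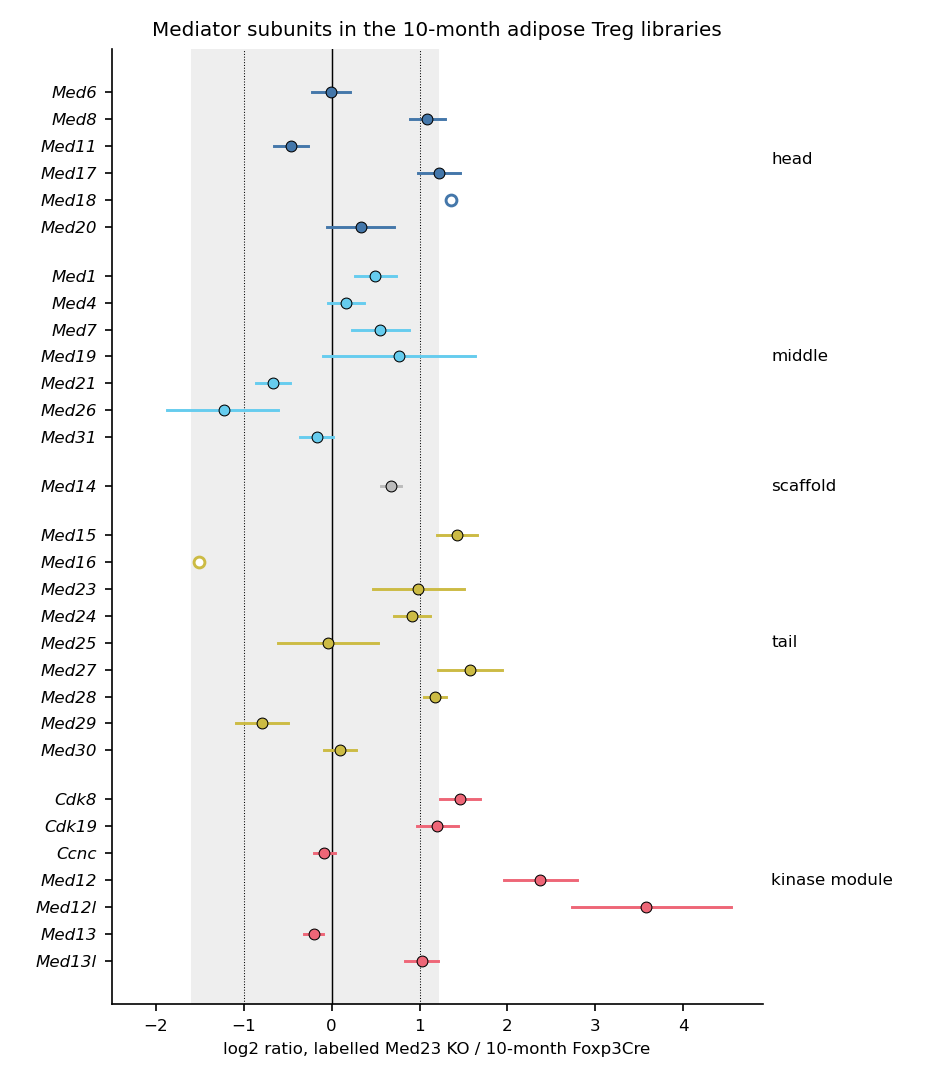
Log2 ratio of each measured Mediator gene in the library labelled Med23 KO over the 10-month Foxp3Cre library, from scaled counts; bars are exact 95% counting intervals, open points (Med18, Med16) are listed at 0 in 1 library and drawn on the value plus 1 scale, and the grey band is the middle 50% of all genes. Med12 and Med12l lie furthest right, at 5.16-fold and 11.9-fold.

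Obese and lean adipose were compared across tables to show how Mediator differs with obesity at 4 months. Of 32 members 10 were higher in obese adipose and 3 lower, 31.2% and 9.38%, beside 34.0% and 18.6% of 14804 genes. Of the 10 higher, 7 were listed at 0 in lean adipose (Med18, Med22, Med9, Med26, Med16, Med25 and Med12l), each at 16.7 CPM or less in obese adipose. With a pseudocount of 5 or a minimum of 5 CPM, 6 members were higher. The other 3 were Med4 (4.56-fold, 3.79 to 5.51), Med6 (3.56-fold) and Med27 (2.88-fold, 2.09 to 4.01). Lower in obese adipose were Med24 (2.65-fold, 1.98 to 3.59), Med21 (2.60-fold, 2.41 to 2.81) and Med17 (2.04-fold, 1.75 to 2.38). In the kinase module 6 of 7 genes were within 2-fold, and Cdk8 and Cdk19 differed in opposite directions, each by 1.39-fold. Macrophage markers summed to 4960 CPM in obese and 897 in lean adipose, fibroblast markers to 14.7 and 982, and adipocyte markers to 299 and 13.7, and their part in these differences was not tested.

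Between 10-month Foxp3Cre adipose and 4-month lean adipose, 6 of 29 members were higher at 10 months and 10 lower, 20.7% and 34.5%, beside 28.8% and 32.0% of 13712 genes. Med23 (7.41-fold) and Med19 (6.15-fold, 3.99 to 9.83) had the widest folds among the lower members. In the kinase module 3 genes were lower: Med12 (3.70-fold, 2.80 to 4.95), Cdk19 (3.18-fold, 2.77 to 3.67) and Cdk8 (2.17-fold, 1.85 to 2.53). Of the 6 higher, Med4 was 3.04-fold higher (2.52 to 3.69) and Med6 2.51-fold (2.11 to 3.00), and Med26, Med16, Med25 and Med12l were listed at 0 in lean adipose. For Med16 the authors' fold change against LN used 8 reads for that 0, beside 16 reads at 10 months, so its call is not firm. Without the 6 overlapped members 6 were lower. Xist and Ddx3y separate these libraries, so age and sex-linked markers cannot be told apart.

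The machinery that Mediator works with was read from lists of other genes, on the deposited scale. Beside these counts, the shares of all genes higher and lower were 37.6% and 32.1% in lean adipose against LN, 41.8% and 23.7% in obese adipose, and 28.6% and 34.9% for the library labelled Med23 KO against its control. Of 13 RNA polymerase II subunits, 1 was higher (7.69%) and 4 lower (30.8%) in lean adipose than in LN (median -0.69), 1 and 7 (53.8%) in obese adipose (median -1.01), and 0 and 2 (15.4%) for the library labelled Med23 KO. Polr2a, the largest subunit, was the 1 higher gene in both adipose tissues, at 2.33-fold (2.12 to 2.57) and 2.58-fold (2.35 to 2.84). Of general transcription factors 5 were higher (16.1%) and 12 lower (38.7%) of 31 in lean adipose, and 5 (16.1%) and 13 (41.9%) of 31 in obese adipose. In the library labelled Med23 KO these were 4 (12.5%) and 13 (40.6%) of 32, so in lean adipose and in this library the lower share was near that of all genes. Of pause release and elongation genes 10 were higher (43.5%) and 4 lower (17.4%) of 23 in lean adipose, 11 (45.8%) and 3 (12.5%) of 24 in obese adipose, and 6 (25%) and 7 (29.2%) of 24 in the library labelled Med23 KO. Their higher share was near that of all genes in each, and their lower share was below it in lean and obese adipose. Their median was 0.95 in lean adipose (all genes 0.14), 0.98 in obese adipose (0.44) and -0.11 in the library labelled Med23 KO (-0.15). Ell2, an elongation factor of the machinery that Med26 recruits, had 774 scaled counts in lean adipose and 1.19 in LN (11 reads), 649.96-fold apart (363 to 1303). Of 11 cohesin and coactivator genes 2 were higher in lean adipose (Ep300 and Smc1a, 18.2%) and 0 lower, and 0 were 2-fold apart in obese adipose. The library labelled Med23 KO had 2 higher (Stag2 and Ep300) and 2 lower (Ncoa2 and Smc1a), 18.2% each. Of 13 activators known to bind Mediator, 7 of 12 measured were higher (58.3%) and 3 lower (25%) in lean adipose (median 2.60), 9 (75%) and 2 (16.7%) of 12 in obese adipose (median 2.64), and 2 (16.7%) and 3 (25%) of 12 in the library labelled Med23 KO. In that library Pparg was listed at 0 against 235 scaled counts in the control, and Trp53 was 43.6-fold lower (23.6 to 91.3).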

How the data were processed

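RNA from sorted Treg cells was made into 5 TruSeq libraries and sequenced, 1 per group, per the labels' protocols. Alignment tools in the submitters' processing notes are TopHat2 2.0.9 and Bowtie2 2.0.6, with mm8 as the build; the sources used here do not give the counter, annotation, strand setting or scaling. Each of the 3 deposited tables holds a scaled read count (a signal) for 2 libraries, and every value above 0 was a whole multiple of 1 step per column within 0.01 reads, which gave the reads behind it. Values under 1 scaled count (6 to 10 reads at the smallest listed value) are at 0. The LN library is in both 4-month tables. The authors also deposited a log2 fold change, a p-value and a q-value per gene; their test is not stated, only the fold change and their mark of changed genes were read, and with 1 library per group no p-value is given here.

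Ensembl IDs were paired with symbols for 49326 of 49927 IDs. Exon lengths (merged over the annotated transcripts of a gene) and overlaps came from GENCODE M21, and promoter windows from RefSeq GRCm38.p6. Neither was mixed with the authors' mapping coordinates. Ratios used scaled counts within a table and CPM across tables, with a pseudocount of 1 for calls and none for folds. Exact 95% counting intervals came from the reads. Med27 to Med30 were counted in the tail. The 33 genes are all named; of other lists, the 2 genes with the largest ratio in each direction could be named. Members and lists were chosen with earlier results of these data known. Alternatives were other pseudocounts, scalings, minimums, summed IDs, and, added after seeing the data, leaving out overlapped members. The calling step was tested on simulated data. Python 3.11.15, numpy 2.4.6, pandas 2.3.3, scipy 1.17.1 and matplotlib 3.10.9 were used.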

Additional observations from a re-analysis of the deposited data

Results flagged for a closer look

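These members moved one way from LN in 1 adipose library and the other way in a second. Each difference was not tested, each pair shares the LN library, and each group holds 1 library.

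Between the lean and obese adipose comparisons, Med6 differed by 1.75 on the log2 scale: it was 1.91-fold below LN in lean adipose (1.58 to 2.30) and 1.83-fold above it in obese adipose (1.60 to 2.10). Med21 differed by -1.4, at 1.31-fold above LN in lean adipose and 2.03-fold below it in obese adipose. Med24 differed by -1.33, at 1.41-fold above LN and 1.91-fold below it.

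For the lean adipose and 10-month Foxp3Cre comparisons, the lean ratio was on scaled counts and the 10-month ratio on CPM, so each difference mixes scales. Between them Med6 differed by 1.43, at 1.91-fold below LN and 1.46-fold above it. Med19 differed by -2.11, at 1.89-fold above LN and 2.95-fold below it. Med21 differed by -1.61, at 1.31-fold above and 2.35-fold below LN. Med12 also differed by -1.61, at 1.60-fold above and 2.10-fold below LN. Med11 differed by -0.735, at 1.09-fold above and 1.53-fold below LN, and its lean adipose value turned to -0.02 on the log2 scale when centred on all genes. With CPM on both sides, the differences were 1.29 for Med6, -2.24 for Med19, -1.75 for Med21, -1.75 for Med12 and -0.876 for Med11.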

How the results depend on the processing

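No paired analysis was possible because each group holds 1 library, and for the same reason no library could be left out of a comparison. Of 84 recomputed counts of members called, 74 stayed within 1.5 times the reported count and 10 did not. Members lower in obese adipose than in LN numbered 11 in place of 6 when ratios were centred on all genes, and those higher 10 in place of 13, so the balance turned. The member median for lean adipose against LN went from 0.06 to -0.08 when centred and to -0.84 without overlapped members. Between the deposited, rescaled and centred scales 2 to 5 members per comparison changed sign, each within 2-fold. Members lower in the library labelled Med23 KO numbered 0 with a pseudocount of 5 and 1 with columns rescaled, centred, or at a minimum of 5, in place of 2. Members higher in obese than in lean adipose numbered 6 with a pseudocount of 5 or a minimum of 5, in place of 10. Members lower in 10-month Foxp3Cre than in LN numbered 7 with a pseudocount of 5, and 7 without overlapped members, in place of 11. Against lean adipose they numbered 6 without overlapped members, in place of 10. The cause was not tested, except that the settings with a minimum or without overlapped members hold fewer genes. The Med23 ratio was 2.44 with columns rescaled, in place of 1.98. Of the recomputed member ratios, 996 stayed within their counting interval or barely moved, and 250 did not. A member listed at 0 in 1 library has no interval, so all but a very small shift put it among the 250. Of 24 head and tail counts recomputed with Med27 to Med30 in the head, 15 stayed within 1.5 times and 9 did not. Moving Med27 to Med30 to the head gave head shares of 49.4% in LN and 30.0% to 34.3% in the adipose libraries. The tail then took 4.03% in LN and 5.86% to 8.93% in the adipose libraries, so its direction turned. Genes under about 10 reads are at 0, which limits Med9, Med10, Med16, Med18, Med22 and Med26. The same limit holds for Med20, Med25, Med27 and Med12l in the libraries where they are listed at 0.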
